A study of Homo sapiens with 15 samples.

Results

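The genes described here encode the proteasome. They were taken as every gene symbol in the count tables that starts with PSM, a letter from A to G and a number, which gave 48 of the 43388 symbols counted. They comprised 8 alpha and 7 beta subunits of the 20S core, the 3 immunoproteasome subunits PSMB8, PSMB9 and PSMB10, the thymus-specific PSMB11, 6 ATPase and 11 non-ATPase subunits of the 19S regulatory particle, 3 assembly chaperones of that particle (PSMD5, PSMD9 and PSMD10), 4 assembly chaperones of the core (PSMG1 to PSMG4), 4 activators (PSME1 to PSME4) and the inhibitor PSMF1. RNA was sequenced from A549 cells, a human lung adenocarcinoma line with an alveolar epithelial phenotype and a wild-type genotype label, after 72 hours in 95% O2 (hyperoxia) or 21% O2 (normoxia). At each oxygen level 2 libraries came from cells given the ethanol vehicle and 3 from cells given 1e-05 mM all-trans retinoic acid (ATRA). ATRA is a vitamin A derivative that acts on nuclear receptors. Vehicle or ATRA was given before the oxygen exposure. A further 2 libraries at each level have labels that name neither, and are called without vehicle here. The labels do not say whether those cells received ethanol, which the authors describe for control cells. All groups are 1 cell line, so they model cultured tumour epithelium.

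The proteasome is the protease that degrades proteins marked with ubiquitin. Its barrel-shaped core holds the proteolytic sites on 3 beta subunits, PSMB5, PSMB6 and PSMB7. The regulatory particle binds ubiquitin chains, removes them and feeds the unfolded substrate through a ring of ATPases into the core. In cells exposed to interferon, PSMB8, PSMB9 and PSMB10 take the places of PSMB5, PSMB6 and PSMB7, and the activator formed by PSME1 and PSME2 caps the core; both changes alter the peptides offered to class I antigen presentation. When proteasome activity is limiting, the transcription factor NFE2L1 raises the transcription of proteasome genes, and NFE2L2, the factor activated by oxidants, can raise some of them through the same DNA element.

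Total counts on genes ran from 2642377 to 5605072 per library, and 3 counts, taken as the limit of detection, corresponded to between 0.535 and 1.14 counts scaled to a common library size (CPM, counts per 1e+06); this limit covers counting error only. The labels do not say whether libraries of a group came from separate cultures, so the p-values measure the spread between these libraries, which may be technical. Hyperoxia without vehicle replicate 1 stood apart, with 12657 genes holding a count and a correlation of 0.93 with the other library of its group in log2 CPM. The epithelial markers KRT8, KRT18, KRT19, EPCAM and CDH1 summed to between 5740 and 9560 CPM in normoxia and between 1690 and 4200 CPM in hyperoxia, with 4, 4 and 3 of the 5 called lower with vehicle, with ATRA and without vehicle, EPCAM staying at or below 4.80 CPM in every library. The surfactant genes, which define alveolar type II cells, summed to at most 2.61 CPM, with SFTPA1 and SFTPA2 at 0. The 5 leukocyte markers summed to between 3.12 and 17.2 CPM in normoxia and between 6.19 and 31.6 CPM in hyperoxia, the 31.6 CPM being ITGAM alone in hyperoxia without vehicle replicate 1, with CD3E at 0, PTPRC at or below 0.177 CPM and CD14 called lower without vehicle. The 3 endothelial markers reached at most 6.26 CPM in normoxia and 0 in hyperoxia, CDH5 being called lower with ATRA. The 4 fibroblast markers reached at most 12.2 CPM in normoxia and 2.3 CPM in hyperoxia, COL1A1 being called lower with vehicle and without vehicle, and VWF and DCN were at 0. The part of these differences in the results was not tested.

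All but 2 of the proteasome genes were expressed. PSMA8, a testis alpha subunit, and PSMB11 had 0 counts in all 14 libraries, and the other 46 passed the filter on low counts and were tested. The RefSeq tables of GRCh38.p14 held at least 1 promoter window, from 250 bases before to 50 bases after a transcription start, for 42 of the 48 genes, 51 windows in all. The windows of PSMC3, PSME1 and PSME2 are shown because they are 3 of the 4 genes called lower in all 3 oxygen comparisons, and those of PSMB9 and TAP1 because the pair is transcribed divergently from starts 487 bases apart and, in ATRA-treated cells, PSMB9 fell and TAP1 rose in hyperoxia. Each is written 5′ to 3′ on the strand of its gene, with matches to 4 motifs, searched on both strands, in capitals. The first was TGACNNNGC, the core of the antioxidant response element bound by NFE2L1 and NFE2L2, and the next TTCNNNGAA, the gamma-activated site. The interferon-stimulated response element was searched as a repeat of GAAA with 2 bases of any kind between the copies. The last was the CCAAT box, searched as the letters of its name.
PSMC3, chr11:47426390-47426689, minus strand: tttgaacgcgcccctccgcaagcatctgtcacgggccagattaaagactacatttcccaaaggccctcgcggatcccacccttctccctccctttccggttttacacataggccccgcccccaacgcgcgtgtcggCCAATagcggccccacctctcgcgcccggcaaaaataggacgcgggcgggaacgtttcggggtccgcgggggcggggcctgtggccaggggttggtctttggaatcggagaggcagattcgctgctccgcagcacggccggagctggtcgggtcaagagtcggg
PSME1, chr14:24135944-24136243, plus strand: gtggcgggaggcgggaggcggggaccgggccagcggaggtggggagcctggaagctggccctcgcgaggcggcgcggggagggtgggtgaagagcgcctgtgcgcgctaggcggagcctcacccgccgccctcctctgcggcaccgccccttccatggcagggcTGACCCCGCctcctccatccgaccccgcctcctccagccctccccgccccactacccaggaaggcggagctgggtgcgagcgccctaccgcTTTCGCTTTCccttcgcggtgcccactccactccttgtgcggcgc
PSME2, chr14:24146561-24146860, minus strand: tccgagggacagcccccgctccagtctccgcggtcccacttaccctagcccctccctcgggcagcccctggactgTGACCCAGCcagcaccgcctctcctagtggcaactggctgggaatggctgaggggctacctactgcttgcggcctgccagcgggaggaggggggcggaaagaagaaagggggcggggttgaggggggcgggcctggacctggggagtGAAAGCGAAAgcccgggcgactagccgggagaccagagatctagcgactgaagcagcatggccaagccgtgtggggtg
PSMB9, chr6:32853942-32854241, plus strand: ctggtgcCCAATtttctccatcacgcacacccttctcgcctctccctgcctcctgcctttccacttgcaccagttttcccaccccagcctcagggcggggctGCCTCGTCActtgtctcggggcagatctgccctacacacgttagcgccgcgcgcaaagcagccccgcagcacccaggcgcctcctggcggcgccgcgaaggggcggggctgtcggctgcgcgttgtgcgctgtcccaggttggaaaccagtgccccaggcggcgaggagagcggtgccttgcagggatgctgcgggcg
TAP1, chr6:32853655-32853954, minus strand: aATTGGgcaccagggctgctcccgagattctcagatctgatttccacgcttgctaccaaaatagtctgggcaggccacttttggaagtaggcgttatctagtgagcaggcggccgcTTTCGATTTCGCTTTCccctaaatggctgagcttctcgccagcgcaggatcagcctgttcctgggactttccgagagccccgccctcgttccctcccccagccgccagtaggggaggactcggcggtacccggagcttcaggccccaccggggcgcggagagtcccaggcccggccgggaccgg
PSME1 and PSME2, whose proteins form 1 complex and whose genes lie on chromosome 14 from 24136194 to 24138962 and from 24143365 to 24146610, both held the antioxidant letters and the interferon letters. PSMC3 held a CCAAT box alone. The window of PSMD1, the other gene called lower in all 3 oxygen comparisons, is not shown and held the antioxidant letters alone. The PSMB9 window held the antioxidant letters and a CCAAT box but no interferon letters. The TAP1 window held 2 overlapping interferon matches and a CCAAT box. The windows share 13 bases, and the CCAAT box in them is the same site, read on opposite strands. The interferon matches lie between the starts of the pair, outside the PSMB9 window, so their absence there reflects where that window was cut. Across all windows of the 48 genes, the antioxidant letters were present in 15 of 51 (29.4%, against 13.3% of 35116 windows of all genes), the interferon letters in 7 (13.7%, against 3.57%), the gamma-activated letters in 8 (15.7%, against 7.66%) and the CCAAT box in 20 (39.2%, against 34.6%). These matches describe letters only, and binding was not measured.

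Hyperoxia was first compared with normoxia among the vehicle libraries. Of the 46 genes tested, 7 were lower and 0 were higher (edgeR, adjusted p under 0.05), while 8.81% of all 14957 genes tested were called lower and 8.68% higher. The share of proteasome genes called, 15.2%, was close to the 17.5% of all genes called in either direction; all of the calls were decreases. The 7 were the core subunits PSMA7 and PSMB3, the 19S subunits PSMC3, PSMD1 and PSMD3 and the activators PSME1 and PSME2. At an unadjusted p under 0.05, 13 were lower and 2 higher, where 14.2% of all genes were lower and 14.4% higher, and DESeq2 called 8 lower and 1 higher. The median log2 fold change of the 46 genes was -0.19, against 0.01 for all genes, and 29 of 46 were negative. The number of calls rested on single vehicle libraries: it was 2 and 1 without hyperoxia with vehicle replicate 1 and 2, and 1 and 3 without normoxia with vehicle replicate 1 and 2, where the lone library left in a group is assumed to vary like the other groups.

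The same contrast in ATRA-treated cells, from other libraries, gave 12 proteasome genes lower and 1 higher, where 11.3% of all genes were called lower and 11.4% higher. The lower genes were PSMA2, PSMB3, PSMB9, PSMC2, PSMC3, PSMC5, PSMD1, PSMD2, PSMD11, PSMD12, PSME1 and PSME2, and the higher gene was PSMF1. Their median was -0.29, against 0.01 for all genes, and 36 of 46 were negative. Without vehicle, 8 were lower and 0 higher (PSMA3, PSMC3, PSMD1, PSMD5, PSMD11, PSMD12, PSME1 and PSME2), where 7.58% of 15339 genes were called lower and 7.57% higher. Beside that count of 0, the unadjusted p was under 0.05 for 1 higher and 18 lower genes (14.6% and 15.6% of all genes), and DESeq2 called 0 higher and 12 lower. The median was -0.32, against -0.10 for all genes, so part of this shift was common to the genes at large. Leaving out hyperoxia without vehicle replicate 1 left 3 lower and 1 higher, leaving out its partner replicate 2 gave 20 lower, and leaving out normoxia without vehicle replicate 1 left 1. Leaving out any of the 4 vehicle libraries left 5.

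The 3 oxygen comparisons share no library in the groups they compare. Their fits do share libraries, as the vehicle and ATRA comparisons came from 1 fit of 10 libraries and the other from all 14. Their estimates of spread are therefore not independent. Fitted on its own groups alone, the comparison without vehicle called 0 genes lower in place of 8. PSMC3, PSMD1, PSME1 and PSME2 were called lower in all 3, which is 8.7% of the 46 genes, against 4.47% of the 14957 genes tested in all 3. A further 3 (PSMB3, PSMD11 and PSMD12) were called lower in 2, and 9 in 1. Regardless of calls, 23 of 46 (50%) had a negative fold change in all 3, against 29.7% of all genes, and 4 were positive in all 3. In an additive model of oxygen and treatment over all 14 libraries, 7 against 7, which was chosen after the data had been seen, 20 of 46 (43.5%) were lower and 2 higher (PSMF1 and PSMB7), where 14.8% of all genes were lower and 15.4% higher (30.2% in either direction). Without hyperoxia without vehicle replicate 1 the same model gave 22 lower and 3 higher, PSMB10 being the third, where 17.8% of all genes were lower and 18.2% higher (36% in either direction).

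**Figure D1:**
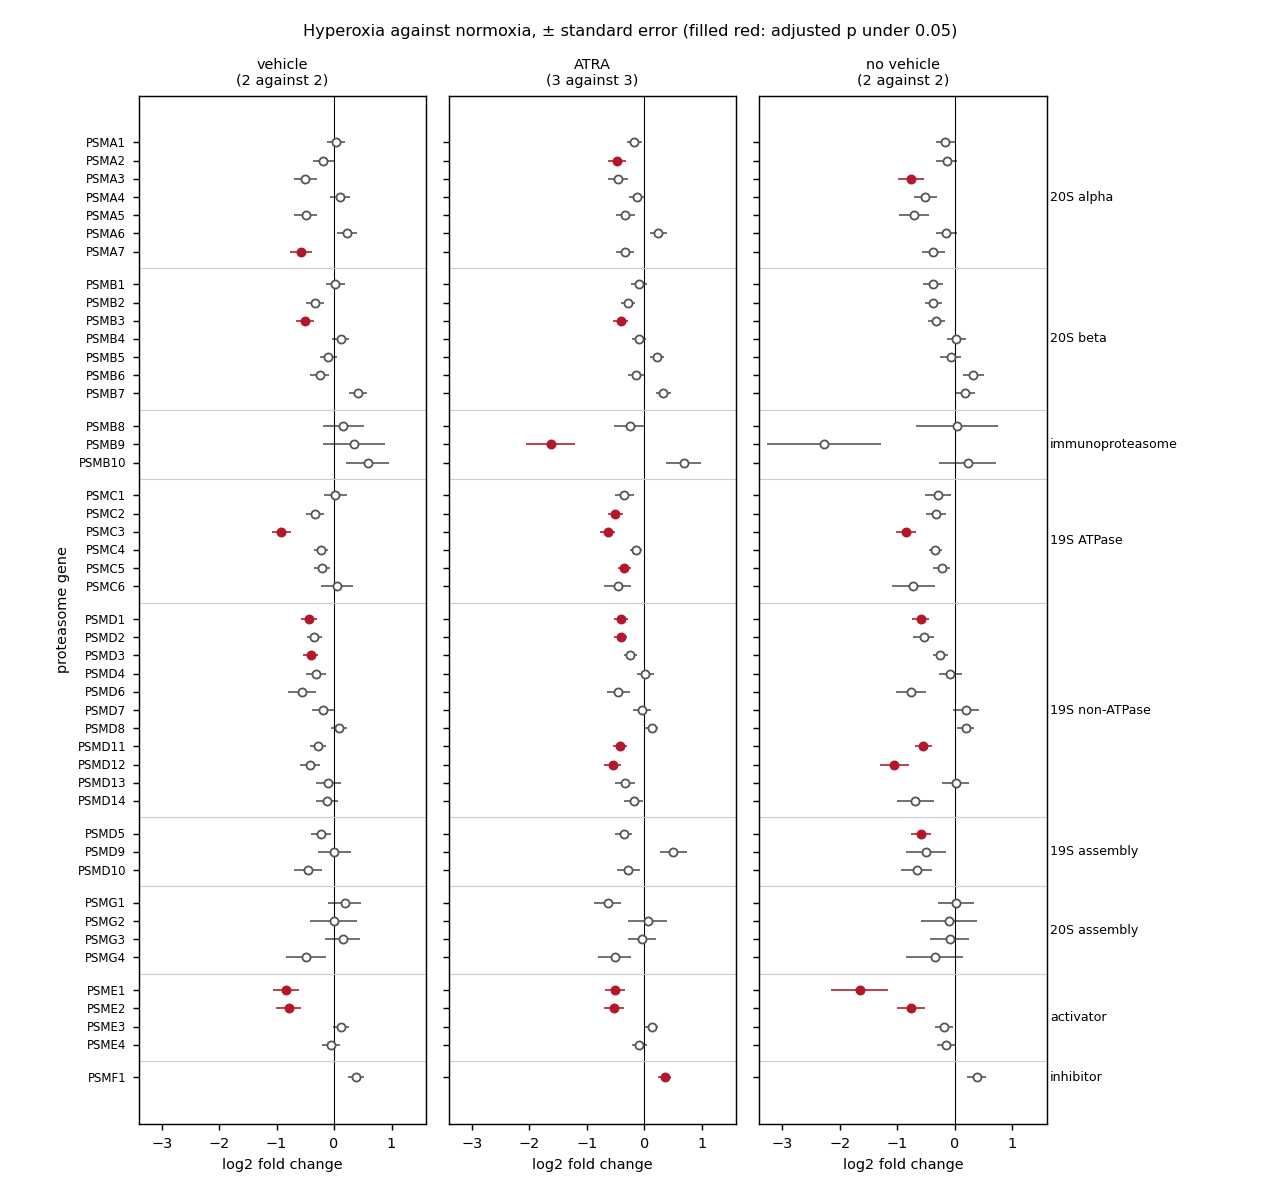
Log2 fold change (x axis) of each of the 46 tested proteasome genes (y axis, grouped by role) in hyperoxia against normoxia with vehicle, with ATRA and without vehicle; bars are standard errors and filled red points have an adjusted p under 0.05. PSMC3, PSMD1, PSME1 and PSME2 are filled to the left of 0 in all 3 panels, and PSMF1 is filled to the right with ATRA.

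Of the 20 tested genes of the 19S regulatory particle, chaperones included, 3 fell with vehicle, 7 with ATRA and 5 without vehicle, with medians of -0.26, -0.35 and -0.52, and none was called higher. Of all genes, 8.81%, 11.3% and 7.58% were called lower in these comparisons. In the 7 against 7 model 12 of 20 were lower, where 14.8% of all genes were. PSMC3, one of the ATPases that unfold substrates (chromosome 11, 47418775 to 47426439), changed most in the vehicle comparison. Its normalised counts were 134 and 129 CPM in normoxia without vehicle, 143 and 123 CPM with vehicle and 115, 128 and 111 CPM with ATRA. In hyperoxia they were 79.5 and 66.1 CPM without vehicle, 65.2 and 74.5 CPM with vehicle and 84.9, 73.1 and 68.5 CPM with ATRA. All 7 hyperoxia libraries lay below all 7 normoxia libraries. The log2 fold change was -0.92 with vehicle (standard error 0.16, edgeR adjusted p = 0.000346), -0.64 with ATRA (standard error 0.13, adjusted p = 0.00143) and -0.85 without vehicle (standard error 0.17, adjusted p = 0.00274). The other 5 ATPases were all negative with ATRA and without vehicle, and of them PSMC2 (-0.51) and PSMC5 (-0.35) passed the threshold with ATRA, and none in the comparison without vehicle. PSMC5 shares 233 bases with FTSJ3 on the opposite strand, which held 70.2% as many counts, and the strand setting of the counting is not given in the sources used here.

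Among the non-ATPase subunits, PSMD1, a large scaffold of the base, had 273 and 220.4 CPM in normoxia without vehicle, 219 and 232 CPM with vehicle and 218, 192 and 185 CPM with ATRA. Its hyperoxia values were 168 and 159 CPM, 179 and 156 CPM, and 151, 139 and 159 CPM in the same order. The groups did not overlap across the 14 libraries, and the log2 fold changes were -0.43, -0.41 and -0.59 with vehicle, with ATRA and without vehicle (standard errors 0.14, 0.12 and 0.15; edgeR adjusted p = 0.0351, 0.0142 and 0.0118). PSMD3, a subunit of the lid, had 198 and 244 CPM without vehicle, 235 and 245 CPM with vehicle and 209, 205 and 233 CPM with ATRA in normoxia. It had 182 and 190.2 CPM, 189 and 173 CPM, and 171, 189 and 187 CPM in hyperoxia, again without overlap. Its log2 fold change was -0.41 with vehicle (standard error 0.13, edgeR adjusted p = 0.0361), while the values of -0.24 with ATRA and -0.25 without vehicle did not pass the test (adjusted p = 0.117 and 0.237).

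PSMD11 and PSMD12, also lid subunits, were called lower with ATRA (-0.42 and -0.55) and without vehicle (-0.54 and -1.05), and not with vehicle (-0.28 and -0.41; adjusted p = 0.19 and 0.114). Without hyperoxia without vehicle replicate 1 the no-vehicle values became -0.39 and -0.63 (adjusted p = 0.189 and 0.0706). PSMD2, which recruits ubiquitin receptors to the base, fell by 0.41 on the log2 scale with ATRA. PSMD6, a lid subunit, passed in none of the 3 comparisons (-0.56, -0.45 and -0.76), yet its 7 hyperoxia libraries (26.8 to 42.7 CPM) lay below its 7 normoxia libraries (43.7 to 56.0 CPM). PSMD7, PSMD8 and PSMD9 were the only genes of the particle above 0 in any comparison by more than 0.1, with none past the threshold, the highest being PSMD9 with ATRA (0.50). Among the assembly chaperones of the particle, PSMD5 was lower without vehicle (-0.58, adjusted p = 0.0338), and not when hyperoxia without vehicle replicate 1 was left out (adjusted p = 0.121).

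Of the 14 tested genes of the 20S core, 2 fell with vehicle, 2 with ATRA and 1 without vehicle, none was called higher, and the medians were -0.14, -0.16 and -0.24. These counts are 14.3%, 14.3% and 7.14% of the core genes, where 8.81%, 11.3% and 7.58% of all genes were called lower. PSMB3, a beta subunit without a proteolytic site, had 112 and 106 CPM in normoxia without vehicle, 113 and 119.5 CPM with vehicle and 97.8, 105 and 103 CPM with ATRA. In hyperoxia it had 85.9 and 88.9 CPM, 80.8 and 82.4 CPM, and 75.7, 84.9 and 70.1 CPM. No hyperoxia library reached a normoxia library. Its log2 fold change was -0.51 with vehicle (standard error 0.15, edgeR adjusted p = 0.024) and -0.41 with ATRA (standard error 0.13, adjusted p = 0.0225), and -0.32 without vehicle missed the threshold (adjusted p = 0.157).

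PSMA7, an alpha subunit, had 167 and 176 CPM without vehicle, 196 and 199 CPM with vehicle and 166, 119.8 and 164 CPM with ATRA in normoxia. In hyperoxia it had 144 and 122 CPM, 137 and 128 CPM, and 88.7, 149 and 122 CPM, so that the oxygen levels overlapped among the ATRA libraries. It fell by 0.58 on the log2 scale with vehicle (standard error 0.19, edgeR adjusted p = 0.0396). PSMA2 fell with ATRA (-0.48, adjusted p = 0.0252) and PSMA3 without vehicle (-0.76, adjusted p = 0.0295; 0.0608 without hyperoxia without vehicle replicate 1). PSMA3 shares 6640 bases with PSMA3-AS1 on the opposite strand, which held 33.7% as many counts.

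The 3 proteolytic subunits of the constitutive core were not called in any oxygen comparison. PSMB5, the chymotrypsin-like site, had 128 and 149 CPM, 159.5 and 156 CPM, and 131, 105 and 118 CPM in normoxia without vehicle, with vehicle and with ATRA, and 105 and 161 CPM, 152 and 142 CPM, and 136, 147 and 130.3 CPM in hyperoxia. PSMB6, the caspase-like site, had 121 and 136 CPM, 187 and 149 CPM, and 107, 124 and 125 CPM in normoxia, and 185 and 136 CPM, 141 and 139.8 CPM, and 114, 86.9 and 118 CPM in hyperoxia. Both overlapped between the oxygen levels. PSMB7, the trypsin-like site, had 133 and 117 CPM, 139 and 109 CPM, and 113, 107 and 86.7 CPM in normoxia. It had 123 and 161 CPM, 168 and 160.3 CPM, and 123, 132 and 132 CPM in hyperoxia, above normoxia with vehicle and with ATRA. Its log2 fold changes were 0.41, 0.33 and 0.18 (edgeR adjusted p = 0.0836, 0.0792 and 0.524), and it was called higher in the 7 against 7 model (0.31, adjusted p = 0.0169). A noncoding gene overlaps PSMB7 over 5714 bases and held 127% as many counts, so the PSMB7 counts are uncertain.

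The activators divided. PSME1 and PSME2, which together form the interferon-inducible PA28 ring, were both called lower in all 3 oxygen comparisons. Over the alternative fits, the calls with ATRA were kept in 4 of 7 for PSME1 and 6 of 7 for PSME2. Those with vehicle were kept in 8 of 9 for each gene. PSME1 had 45.8 and 36.2 CPM in normoxia without vehicle, 44.5 and 37.2 CPM with vehicle and 55.3, 60.5 and 50.2 CPM with ATRA. In hyperoxia it had 3.60 and 23.8 CPM without vehicle, 24.9 and 20.8 CPM with vehicle and 40.9, 35.6 and 39.9 CPM with ATRA. Within each treatment the hyperoxia libraries were all lower, whereas the hyperoxia libraries with ATRA overlapped the normoxia libraries with vehicle. The log2 fold changes for oxygen were -0.84, -0.51 and -1.66 with vehicle, with ATRA and without vehicle (standard errors 0.22, 0.17 and 0.50; edgeR adjusted p = 0.0106, 0.0406 and 0.035). The last became -0.79 (adjusted p = 0.0876) when hyperoxia without vehicle replicate 1, with its 3.60 CPM, was left out, and -3.56 (adjusted p = 8.11e-08) without replicate 2. The call without vehicle was kept in 2 of the 14 fits that left out 1 library, with an adjusted p of up to 0.18 (without normoxia without vehicle replicate 1).

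PSME2 had 60.8 and 51.3 CPM, 64.3 and 50.2 CPM, and 61.6, 84.3 and 61.9 CPM in normoxia in the same order of treatments. It had 28.2 and 38.8 CPM, 32.9 and 32.8 CPM, and 53.7, 41.7 and 47.5 CPM in hyperoxia. Its log2 fold changes were -0.79, -0.53 and -0.76 (standard errors 0.22, 0.17 and 0.24; edgeR adjusted p = 0.0134, 0.0318 and 0.0465), the last of which became -0.54 (adjusted p = 0.254) without the same library, and its call without vehicle was kept in 3 of 14 such fits. PSME3, the nuclear activator that is not induced by interferon, had 268 and 243 CPM, 266 and 244 CPM, and 211, 247 and 202 CPM in normoxia and 194 and 259 CPM, 296 and 258 CPM, and 253, 241 and 225 CPM in hyperoxia. PSME4, which caps the core in place of the regulatory particle, had 186 and 161 CPM, 181 and 160.3 CPM, and 179, 212 and 159 CPM in normoxia and 163 and 149 CPM, 146 and 180.3 CPM, and 186, 161 and 168 CPM in hyperoxia. Neither was called for oxygen, with log2 fold changes between -0.18 and 0.13 (edgeR adjusted p from 0.457 to 0.853).

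PSMF1, an inhibitor of the isolated core that also affects proteasome assembly, moved the other way. It had 156 and 173 CPM, 159.5 and 171 CPM, and 167, 175 and 154 CPM in normoxia, and 179 and 249.8 CPM, 234 and 197 CPM, and 219, 202 and 212 CPM in hyperoxia. All 7 hyperoxia libraries lay above all 7 normoxia libraries. Its log2 fold change was 0.38 with vehicle (standard error 0.14, edgeR adjusted p = 0.0604), 0.35 with ATRA (standard error 0.11, adjusted p = 0.0273) and 0.38 without vehicle (standard error 0.16, adjusted p = 0.118). The call with ATRA was kept in 1 of 10 fits that left out 1 library, that without normoxia with ATRA replicate 2 (adjusted p = 0.0247), and the adjusted p otherwise ran up to 0.137 (without normoxia with ATRA replicate 3). Over the 46 genes, 5 (PSMB3, PSMC3, PSMD1, PSMD3 and PSMD6; 10.9%) had all hyperoxia libraries below all normoxia libraries, against 7.31% of all genes tested, and PSMF1 alone (2.17%) had them above, against 6.34%.

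**Figure D2:**
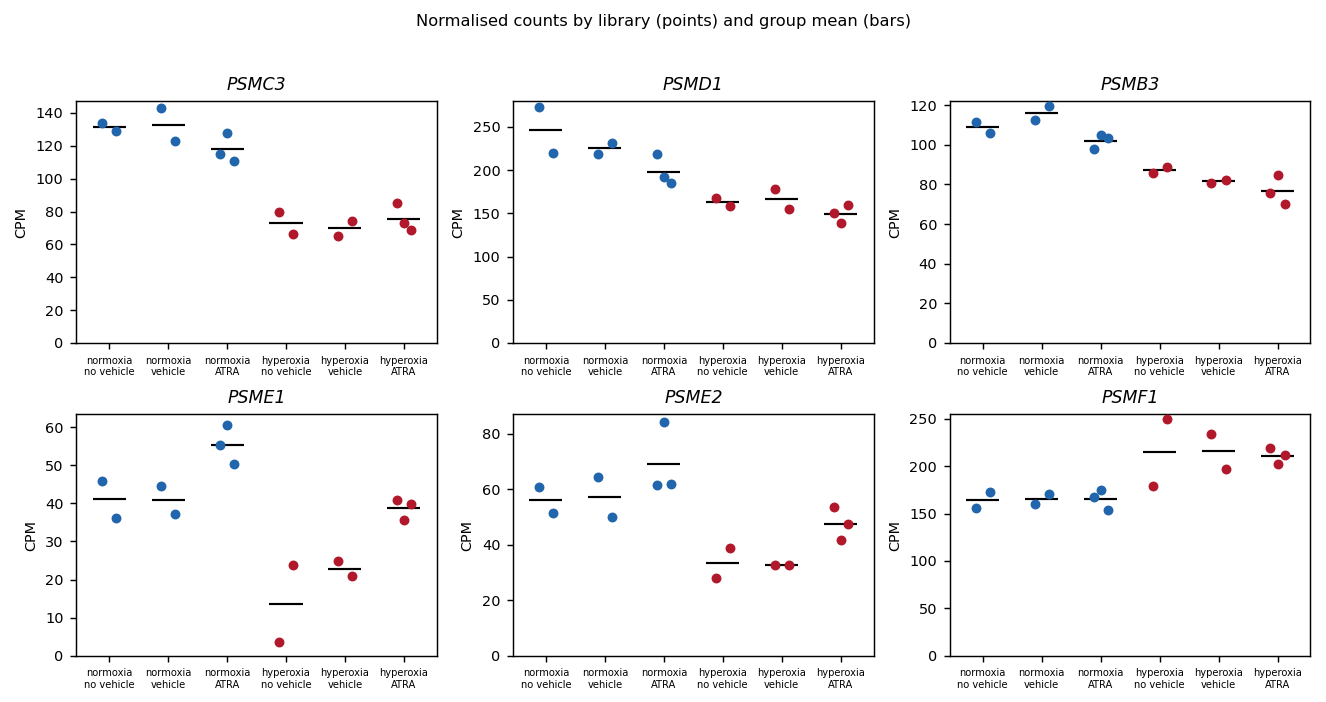
Normalised counts (CPM, y axis) of 6 proteasome genes in each of the 14 libraries (points) of the 6 groups (x axis), with group means as bars. PSMC3, PSMD1 and PSMB3 are lower in every hyperoxia library and PSMF1 is higher; PSME1 and PSME2 are lower in hyperoxia within each treatment, with ATRA libraries above vehicle libraries in hyperoxia.

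The immunoproteasome subunits were present at low levels. Per kilobase of the longest transcript, the normoxia vehicle libraries had 4.21 ± 0.462 CPM for PSMB8, 1.77 ± 0.438 CPM for PSMB9 and 9.51 ± 1.64 CPM for PSMB10 (SD, n = 2). The constitutive PSMB5, PSMB6 and PSMB7 had 141 ± 2.08, 193 ± 30.7 and 126 ± 21.6 CPM on the same scale. Across all groups, the level per length of PSMB8 was between 0.629% and 11.8% of that of PSMB5, PSMB9 between 0% and 4.77% of PSMB6, and PSMB10 between 4.92% and 17.7% of PSMB7. Transcript lengths and the counts of overlapping genes limit these ratios. PSMB8 (chromosome 6, 32840717 to 32844679, minus strand) shares 594 bases with PSMB8-AS1 on the opposite strand, which held 138% as many counts, so its counts are uncertain.

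PSMB9 (chromosome 6, 32854192 to 32859851) was the member with the most negative oxygen fold change in ATRA-treated cells. It had 4.49 and 5.52 CPM in normoxia without vehicle, 5.56 and 3.90 CPM with vehicle and 13.6, 18.1 and 16.9 CPM with ATRA. In hyperoxia it had 0 and 2.28 CPM without vehicle, 7.16 and 4.77 CPM with vehicle and 3.06, 4.59 and 8.03 CPM with ATRA. The 3 normoxia libraries with ATRA were thus above all 11 others. The log2 fold change for oxygen was -1.63 with ATRA (standard error 0.42, edgeR adjusted p = 0.00771), 0.34 with vehicle (standard error 0.54, adjusted p = 0.741) and -2.27 without vehicle (standard error 0.99, adjusted p = 0.135); the difference between the first pair of effects is the interaction, which did not pass the threshold (-1.98, standard error 0.69, unadjusted p = 0.009, adjusted p = 0.444). The value without vehicle became -1.12 (adjusted p = 0.428) without hyperoxia without vehicle replicate 1, the library at 0, and was called (adjusted p = 0.000359) when that library alone stood for its group, where a fold against 0 counts has no fixed size.

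PSMB8 had 3.32 and 9.36 CPM, 10.8 and 9.22 CPM, and 18.3, 26.2 and 24.7 CPM in normoxia, and 1.40 and 12.1 CPM, 9.28 and 12.7 CPM, and 18.2, 24.9 and 15.3 CPM in hyperoxia, overlapping between oxygen levels within each treatment. PSMB10 had 9.36 and 8.88 CPM, 10.4 and 8.16 CPM, and 13.8, 8.74 and 12.5 CPM in normoxia, and 5.99 and 15.6 CPM, 12.5 and 15 CPM, and 21.6, 13.8 and 20.5 CPM in hyperoxia. With vehicle the hyperoxia libraries of PSMB10 were above normoxia and with ATRA the lowest hyperoxia library (13.8 CPM) overlapped the highest normoxia library. Neither was called for oxygen, with log2 fold changes of 0.16, -0.26 and 0.04 for PSMB8 and 0.58, 0.68 and 0.22 for PSMB10 with vehicle, with ATRA and without vehicle (edgeR adjusted p = 0.832, 0.55 and 0.977, and 0.34, 0.114 and 0.792).

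TAP1, the peptide transporter subunit transcribed away from PSMB9, rose in hyperoxia in all 3 comparisons (1.03, 0.87 and 1.32; edgeR adjusted p = 0.000547, 0.000308 and 0.00106). It had 24.0 to 48.1 CPM in the 7 normoxia libraries and 67.6 to 87.4 CPM in the 7 hyperoxia libraries, without overlap. The difference in oxygen response between TAP1 and PSMB9 was not tested.

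**Figure D3:**
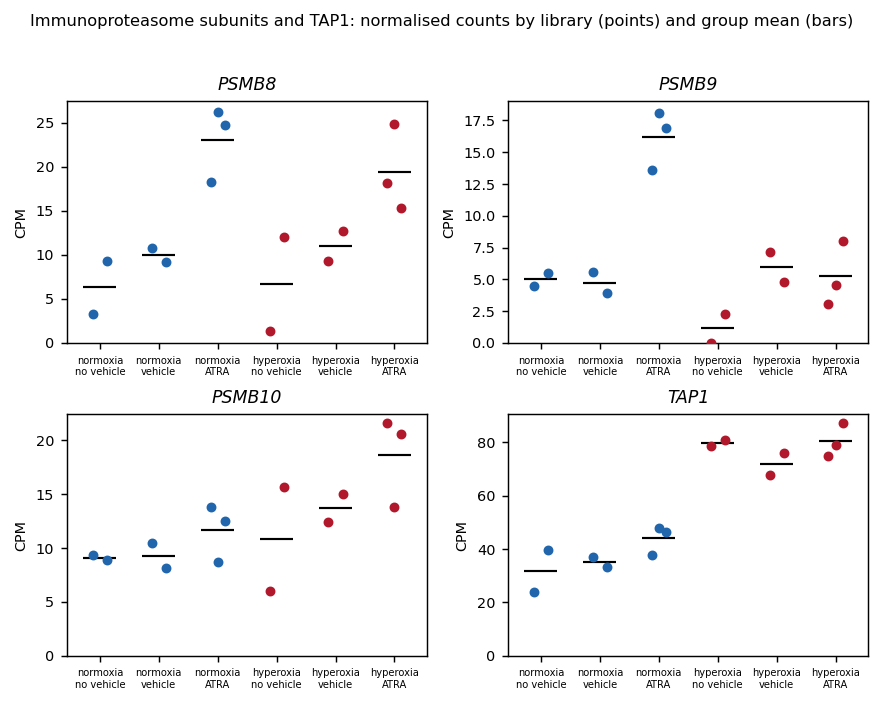
Normalised counts (CPM, y axis) of the 3 immunoproteasome subunits and TAP1 in each of the 14 libraries (points) of the 6 groups (x axis), with group means as bars. The 3 normoxia ATRA libraries of PSMB9 lie at 13.6 to 18.1 CPM, above all others, and TAP1 is higher in every hyperoxia library than in any normoxia library.

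ATRA was compared with vehicle at each oxygen level. These comparisons share the vehicle libraries with the oxygen comparison above, so they are not independent of it. In normoxia 0 proteasome genes were called (edgeR), where 1.25% of all genes were called in either direction (0.816% higher, 0.435% lower); 8 had an unadjusted p under 0.05, 3 of them higher, and DESeq2 called 2 higher, PSMB8 and PSMB9. The largest fold changes were those of PSMB9 (1.80, standard error 0.50, adjusted p = 0.0925) and PSMB8 (1.21, standard error 0.33, adjusted p = 0.0819), and in both genes all 3 ATRA libraries were above all 4 normoxia libraries without ATRA. How many of all genes had this separation was not counted. Over the alternatives the adjusted p ran from 0.0103 to 0.94 for PSMB9 and from 0.00392 to 1 for PSMB8. PSMB10 had 0.35 (adjusted p = 0.896). The 14 tested core genes had a median of -0.23, with 11 negative, against a median of 0.00 and 49.9% negative for all genes.

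In hyperoxia 1 proteasome gene was called, PSME1, which was higher with ATRA (0.77, standard error 0.20, edgeR adjusted p = 0.0498), where 1.52% of all genes were called higher and 0.695% lower (2.21% in all). Its 3 ATRA libraries were above the 4 hyperoxia libraries without ATRA. The epithelial markers KRT8, KRT18, KRT19 and CDH1 were also called higher with ATRA in hyperoxia (0.97 to 1.28), and their part in this result was not tested. The call lies at the threshold: it was kept in 1 of 10 fits that left out 1 library, that without normoxia with ATRA replicate 2 (adjusted p = 0.0391), and otherwise the adjusted p ran up to 0.536 (without hyperoxia with vehicle replicate 2). PSME2 had 0.55 (edgeR adjusted p = 0.2) with its 3 ATRA libraries also above the 4 others. How many of all genes were separated in the way of PSME1 and PSME2 was not counted. PSMB8 had 0.80 (edgeR adjusted p = 0.252) and PSMB9 -0.18 (adjusted p = 0.924). All 14 tested core genes had a negative value, with a median of -0.17 and none past the threshold, and PSMB6 was lowest (-0.39, edgeR adjusted p = 0.218). Of all genes 49.6% were negative, with a median of 0.00. The core genes were read in the same libraries, so their signs are not separate observations.

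In an additive model of ATRA and oxygen over 10 libraries, 6 against 4, chosen after the data had been seen, 2 proteasome genes were higher with ATRA, PSMB8 (1.00, edgeR adjusted p = 0.0162) and PSME1 (0.60, adjusted p = 0.0219), and 2 were lower, PSMB6 (-0.45, adjusted p = 0.024) and PSMD11 (-0.36, adjusted p = 0.0399), where 1.83% of all genes were higher and 0.976% lower (2.81% in all). The interaction of ATRA and oxygen called 0 of the 46 genes (edgeR), where 0.14% of all genes were called (0.1% higher, 0.0401% lower). PSMB9 (-1.98) and PSMG1 (-0.83) had an unadjusted p under 0.05, 2 genes in all, and DESeq2 called 0.

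**Figure D4:**
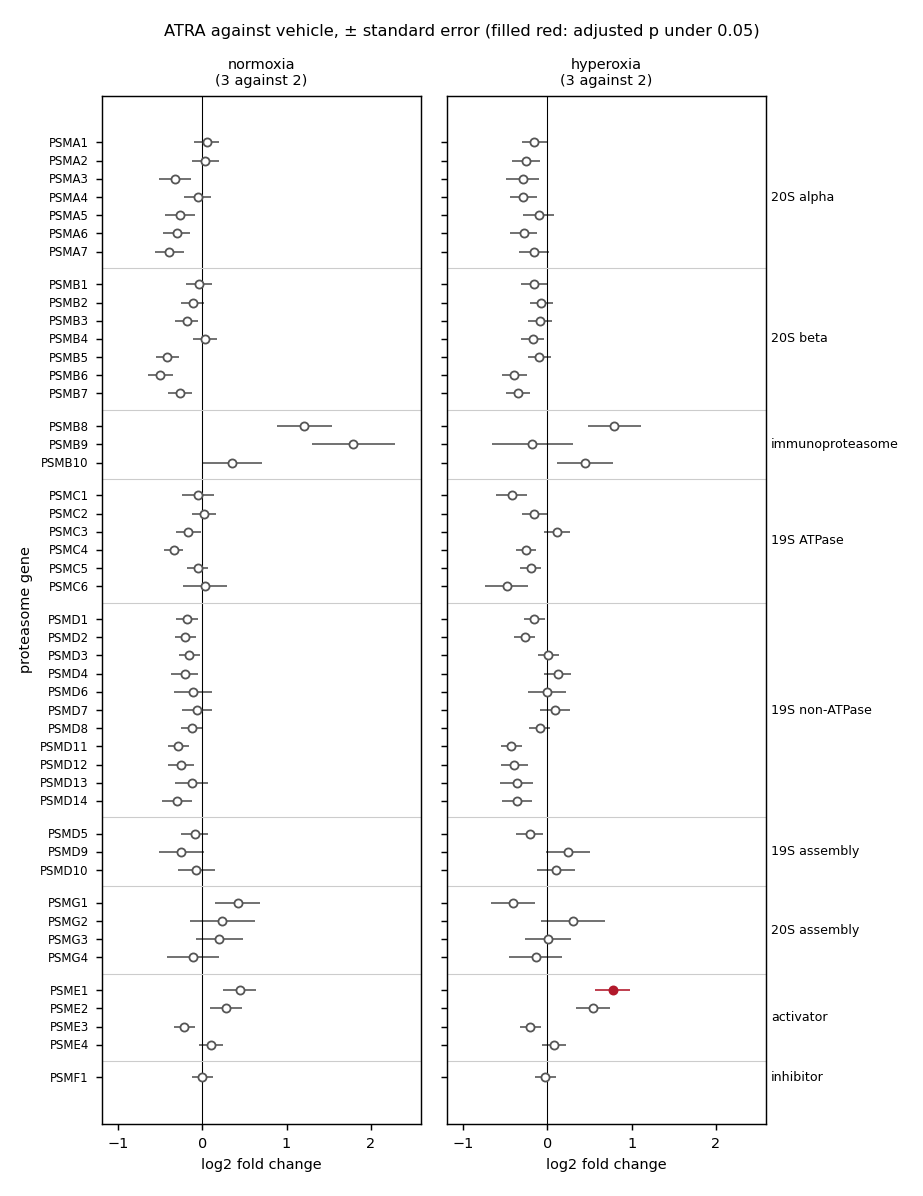
Log2 fold change (x axis) of each of the 46 tested proteasome genes (y axis, grouped by role) with ATRA against vehicle in normoxia and in hyperoxia; bars are standard errors and filled red points have an adjusted p under 0.05. PSME1 in hyperoxia is the 1 filled point, PSMB8 and PSMB9 lie farthest right in normoxia, and the core genes lie left of 0 in hyperoxia.

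Genes around the proteasome were read from 4 lists. Of 14 genes for ubiquitin supply and substrate shuttling, 3 rose and 4 fell in hyperoxia with vehicle, with a median of -0.02, where 8.68% of all genes were called higher and 8.81% lower. RPS27A, which encodes ubiquitin fused to a ribosomal protein, fell in all 3 oxygen comparisons (-1.01, -0.70 and -1.44), and VCP, the ATPase that extracts ubiquitinated proteins for the proteasome, fell by 0.66, 0.55 and 0.56 on the log2 scale.

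Of 12 proteasome partners, 0 were called with vehicle (edgeR; 2 with an unadjusted p under 0.05, and 0 called by DESeq2), 3 with ATRA and 2 without vehicle. Of all genes, 17.5%, 22.7% and 15.2% were called in either direction with vehicle, with ATRA and without vehicle. ADRM1, a ubiquitin receptor, had the smallest p with vehicle (-0.40, adjusted p = 0.132). USP14, a deubiquitinase of the regulatory particle, had the smallest p with ATRA (-0.68, edgeR adjusted p = 0.00139) and was called lower without vehicle (-0.56, adjusted p = 0.0359); with vehicle its value was -0.32 (adjusted p = 0.238). AKIRIN2, which brings proteasomes into the nucleus, rose with ATRA (0.62, adjusted p = 0.0217). Of 10 genes of the NFE2L1 axis, 1 rose with vehicle, 2 with ATRA and 3 without vehicle, and none fell, where 8.68%, 11.4% and 7.57% of all genes were called higher. The list mixes the factors with their regulators, KEAP1 among them, so these counts give no direction of activity for the axis. NFE2L1 itself had 260 to 320 CPM in normoxia and 333 to 419 CPM in hyperoxia, without overlap, with log2 fold changes of 0.17, 0.29 and 0.38 (edgeR adjusted p = 0.429, 0.0465 and 0.0474). MAFF, a small MAF partner of NFE2L1 and NFE2L2, rose by 2.54 with vehicle (edgeR adjusted p = 0.0031). Its levels were low, with 1.74 to 5.74 CPM in the 7 normoxia libraries and 3.60 to 18.9 CPM in the 7 hyperoxia libraries, which overlapped. The next smallest p were those of DDI2, the protease that activates NFE2L1 (0.53, adjusted p = 0.185), and NFE2L2 (0.22, adjusted p = 0.398), which did not pass the threshold.

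Of 14 class I presentation genes, 3 rose and 3 fell in hyperoxia with vehicle, where 8.68% of all genes were called higher and 8.81% lower. CALR, a chaperone of the endoplasmic reticulum that loads class I molecules, had the smallest p (-0.97, edgeR adjusted p = 2.37e-05), followed by TAP1. With ATRA against vehicle in hyperoxia, 1 of the 14 was called, CALR (0.50, adjusted p = 0.0337).

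Summed over the 48 genes, proteasome transcripts took 0.540% and 0.554% of gene counts in normoxia with vehicle, 0.510% and 0.523% without vehicle, and 0.465% to 0.496% with ATRA. In hyperoxia they took 0.479% and 0.481% with vehicle, 0.429% and 0.430% without vehicle, and 0.412% to 0.448% with ATRA. Within each treatment the share was lower in every hyperoxia library than in any normoxia library. Bulk counts cannot tell fewer transcripts per cell from a change in the rest of the transcriptome.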

How the data were processed

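Sequencing of 15 A549 libraries, made with a directional kit, gave reads that the authors trimmed (Trimmomatic 0.38), mapped to hg38 (HISAT2) and assigned to genes (HTSeq). The authors deposited 1 table of unnormalised read counts per library. Between 48.6% and 55.3% of all entries in these tables fell in no gene and were left out, as were ambiguous reads. The annotation release, and whether counting used strand, are not given in the sources used here. One library whose labels name a treatment outside the design was not grouped, which left 14.

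Tests used edgeR 4.0.16 (R 4.3.3): filterByExpr (minimum count 10, minimum total 15), TMM scaling, quasi-likelihood F tests, and Benjamini-Hochberg adjusted p over every gene tested, called at 0.05. The vehicle, ATRA and interaction comparisons were fitted on 10 libraries in 4 groups, and the comparison without vehicle on 14 in 6 groups. Printed CPM share 1 TMM scaling of the 14 libraries, and the unassigned library was scaled with all 15. Alternatives were DESeq2 1.42.0, other size factors, no filter, other sets of libraries and leaving out each library. The procedure was also run on simulated counts with larger changes than most of those reported here. That outcome is not reported here and lends the calls no support.

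Values in every library are given for the catalytic subunits and their immunoproteasome counterparts, the activators, the 8 members with the smallest p in the vehicle comparison and up to 5 called with ATRA. Other members are named where they passed the threshold or were highest or lowest of their group, and from each surrounding list those among the 3 genes with the smallest p that are reported here; some are not reported here. PSMD6, PSMD7, PSMD8, PSMG1 and the levels of NFE2L1 and MAFF were chosen after their values were seen. The members and lists were chosen with earlier results of these data known. Positions, promoters and overlaps are from RefSeq (GRCh38.p14) and transcript lengths from GENCODE. Figures were drawn with matplotlib 3.10.9 (Python 3.11.15).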

Additional observations from a re-analysis of the deposited data

Results flagged for a closer look

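PSMG1, a chaperone of core assembly, had all 3 ATRA libraries above the vehicle libraries in normoxia (25.8, 33.1 and 27.6 against 17.0 and 25.4 CPM) and all 3 below them in hyperoxia (15.5, 18.4 and 21.7 against 24.1 and 24.9 CPM). The libraries without vehicle did not keep this order, with 27.1 and 21.3 CPM in normoxia and 28.0 and 21.2 CPM in hyperoxia. PSMG1 was found by searching all 48 genes for opposite orders of ATRA and vehicle libraries. How many of all genes show such a pattern was not counted. The interaction of ATRA and oxygen was -0.828 on the log2 scale (standard error 0.37) and did not pass the threshold (edgeR adjusted p = 0.65).

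One library was put in no group, because its title names hyperoxia while its treatment label names adipogenic differentiation. It was compared with the 8 libraries without ATRA, 4 at each oxygen level, under a scaling of all 15 libraries. Among the 16 genes given library by library, 3 were above the highest of those 8: PSMB5 at 162 CPM (highest 161 CPM), PSMB7 at 169 CPM (highest 166 CPM) and PSMB8 at 18.1 CPM (highest 12.7 CPM). Below the lowest of those 8 were PSMC3 at 63.1 CPM (lowest 64.7 CPM) and PSMD1 at 150.3 CPM (lowest 155.6 CPM). The share of all genes outside the range of those 8 was not counted. A single library gives no estimate of spread.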

How the results depend on the processing

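No paired analysis was possible because the labels give no replicate numbers. With vehicle, proteasome genes called higher in hyperoxia (0) became 1 with DESeq2, 2 with only the compared groups, 1 with vehicle and no-vehicle libraries pooled and 2 in that pool without hyperoxia without vehicle replicate 1; those called lower (7) became 2 with 14 libraries in 6 groups, 15 with only the compared groups and 18 in either pool. The additive model over 14 libraries gave 2 higher and 20 lower, and 3 and 22 without that library, in place of each oxygen count. With ATRA, higher calls (1) became 0 and lower calls (12) became 6 with 14 libraries, and higher calls were 0 with only the compared groups; without vehicle, lower calls (8) became 0 with only the compared groups. For ATRA in normoxia, higher calls (0) became 2 with DESeq2, with only the compared groups, in the pool without the library above and in the additive model, which also gave 2 lower. For ATRA in hyperoxia, higher calls (1) became 0 with 14 libraries, without a filter, with only the compared groups and in the pool, and 2 in the additive model; lower calls (0) became 1 with DESeq2 and 2 in the additive model. The pools without that library and the additive models were chosen after seeing the data. Leaving out 1 library each time gave 0 to 1 higher and 1 to 7 lower with vehicle, 0 to 2 and 9 to 12 with ATRA, 0 to 1 and 1 to 20 without vehicle, 0 to 2 higher for ATRA in normoxia and 0 to 1 in hyperoxia. PSMB9 turned from 0.34 to -0.93 (vehicle against the additive model without that library) and PSMB8 without vehicle ran from -2.19 to 0.95 when 1 library was left out. The cause was not tested. Without vehicle, PSMB9 (-2.27) ran from -7.44 to -1.12 when 1 library was left out. At 3 counts the limit of detection was 0.535 to 1.14 CPM, near the lowest values of PSMB8 and PSMB9.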

Other observations

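In the ungrouped library, whose title names hyperoxia, PSMC3 was 63.1 CPM, PSME1 34.5 CPM, PSME2 32.1 CPM and PSMF1 196 CPM under the scaling of all 15 libraries. PSMC3 lay below the lowest of the 14 other libraries (64.7 CPM) and the other 3 lay within their range.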
